A study of Homo sapiens with 28 samples.

Results

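The BCL2 family genes that decide between survival and death of a cell were described in CHL-1, an established human melanoma line, treated with a compound that blocks BET proteins. The 10 genes are the ones that the array annotation names BCL2, BCL2L1, MCL1, BCL2L11, PMAIP1, BAX, BAK1, BID, BIK and BOK, out of 22357 genes named by the arrays. Each of them was measured by 1 probe set, that is, 1 group of probes summarised into a single value. All 10 are among the 9285 genes tested, which had a log2 intensity above 5 on at least 4 arrays. Cells were kept for 24 h or 4 h with the BET inhibitor BAY1238097, dosed at 75 nM or at 468 nM, or with its solvent DMSO, and the submitters labelled the lower dose as the IC50 and the higher dose as the IC90. BET proteins bind acetylated histones through their bromodomains and help RNA polymerase II to start and elongate transcripts, and the question addressed is how transcription follows the dose of the compound. There were 4 DMSO arrays at each time and 5 arrays for each dose at each time, 28 in all, hybridised with labelled total RNA. All groups are the same single cell line grown in serum, with no change of genotype. Whether the arrays of a group stand for separate cultures is not said in the labels, and p-values therefore measure only how far these samples scatter, which may be technical scatter.

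Proteins of this family meet at the outer mitochondrial membrane. The effectors BAX and BAK1 open pores through which cytochrome c escapes and starts the caspase cascade, and BOK is a related effector that acts largely on its own. BCL2, BCL2L1 (whose main product is BCL-XL) and MCL1 hold the effectors in check, while the BH3-only proteins BCL2L11 (BIM), PMAIP1 (NOXA), BIK and BID bind these guardians or the effectors and promote death. Melanoma cells often depend on more than 1 guardian, and NOXA binds MCL1 with preference while BIM binds all of the guardians.

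The promoters of the 3 genes with the largest changes at 468 nM are shown here, because BCL2L11 and PMAIP1 rose together at 4 h while BCL2 fell. They come from RefSeq, build GRCh38.p14, and run from 250 bases before to 50 bases after the annotated start, read in the direction of the gene. Capitals mark matches on either strand to 7 motifs that were searched: the E-box CACGTG, the GC box GGGCGG, the TATA box TATAAA, the AP-1 site TGACTCA, the CRE TGACGTCA, the forkhead site TGTTTAC and the CCAAT box CCAAT. None of the printed matches overlap one another.
BCL2L11, chr2:111120664-111120963, plus strand: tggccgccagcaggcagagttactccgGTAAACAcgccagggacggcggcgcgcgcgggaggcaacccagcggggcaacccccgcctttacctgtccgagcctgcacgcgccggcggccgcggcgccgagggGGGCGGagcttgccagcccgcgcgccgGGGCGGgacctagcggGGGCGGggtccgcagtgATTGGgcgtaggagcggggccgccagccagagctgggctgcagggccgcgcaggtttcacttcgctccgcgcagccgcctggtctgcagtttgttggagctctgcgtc
PMAIP1, chr18:59899746-59900045, plus strand: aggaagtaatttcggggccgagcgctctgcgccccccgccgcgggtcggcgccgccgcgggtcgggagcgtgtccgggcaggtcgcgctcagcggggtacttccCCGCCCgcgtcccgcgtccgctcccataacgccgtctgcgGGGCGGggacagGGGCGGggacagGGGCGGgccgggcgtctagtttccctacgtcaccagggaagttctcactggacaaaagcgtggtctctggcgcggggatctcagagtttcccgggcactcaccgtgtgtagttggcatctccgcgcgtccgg
BCL2, chr18:63319720-63320019, minus strand: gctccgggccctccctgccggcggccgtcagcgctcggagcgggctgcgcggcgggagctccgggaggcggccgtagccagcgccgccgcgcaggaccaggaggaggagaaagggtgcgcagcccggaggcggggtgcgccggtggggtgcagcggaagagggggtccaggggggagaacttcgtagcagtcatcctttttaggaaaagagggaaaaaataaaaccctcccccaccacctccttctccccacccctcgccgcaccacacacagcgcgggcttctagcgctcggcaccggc
In the BCL2L11 window there were 3 GC boxes, 1 forkhead site and 1 CCAAT box, and in the PMAIP1 window 4 GC boxes. The BCL2 window held no match to any of the searched motifs. All of these windows are rich in G and C, with 74.7% for BCL2L11, 71.3% for PMAIP1 and 70.7% for BCL2, above the median of 58.3% over all promoters. A GC box was found in 44.6% of 27305 promoters of the same length, 1 per gene, a CCAAT box in 35.7% and the forkhead site in 3.41%. Of the 10 genes 8 have an entry in the promoter table, MCL1 and BIK being the other two. The window of BAX, which was not called in any comparison, held 4 E-boxes, a motif present in 7.43% of promoters. These matches describe the letters in the windows and say nothing of what binds there.

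Values are log2 intensities after the authors' normalization, so each is a level within its own array, whose median lay between 2.44 and 2.50 on the 28 arrays. Arrays correlated with each other at 0.92 to 0.96. The sample titles carry codes, which were grouped here in rising order into runs, each with at most 1 array of a group. A run joins 4 h arrays with 24 h arrays whose codes do not follow on directly. The first run holds no DMSO array. As a check of the cell type, 9 of 10 listed melanocyte lineage genes were on the array. Of these 4 passed the filter (SOX10, S100B, PAX3 and EDNRB). The others on the array, all from among MITF and the pigment genes, did not. No keratinocyte marker of 9 and no endothelial marker of 9 passed it, nor any fibroblast marker of 8 other than FBLN1 or leukocyte marker of 9 other than CD68. In bulk RNA, fewer cells that carry a transcript and less of it per cell cannot be told apart, which holds for every value below. Fold changes come from limma, fitted over all 28 arrays, and a gene was called changed at a Benjamini-Hochberg adjusted p below 0.05 within its comparison.

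**Figure D1:**
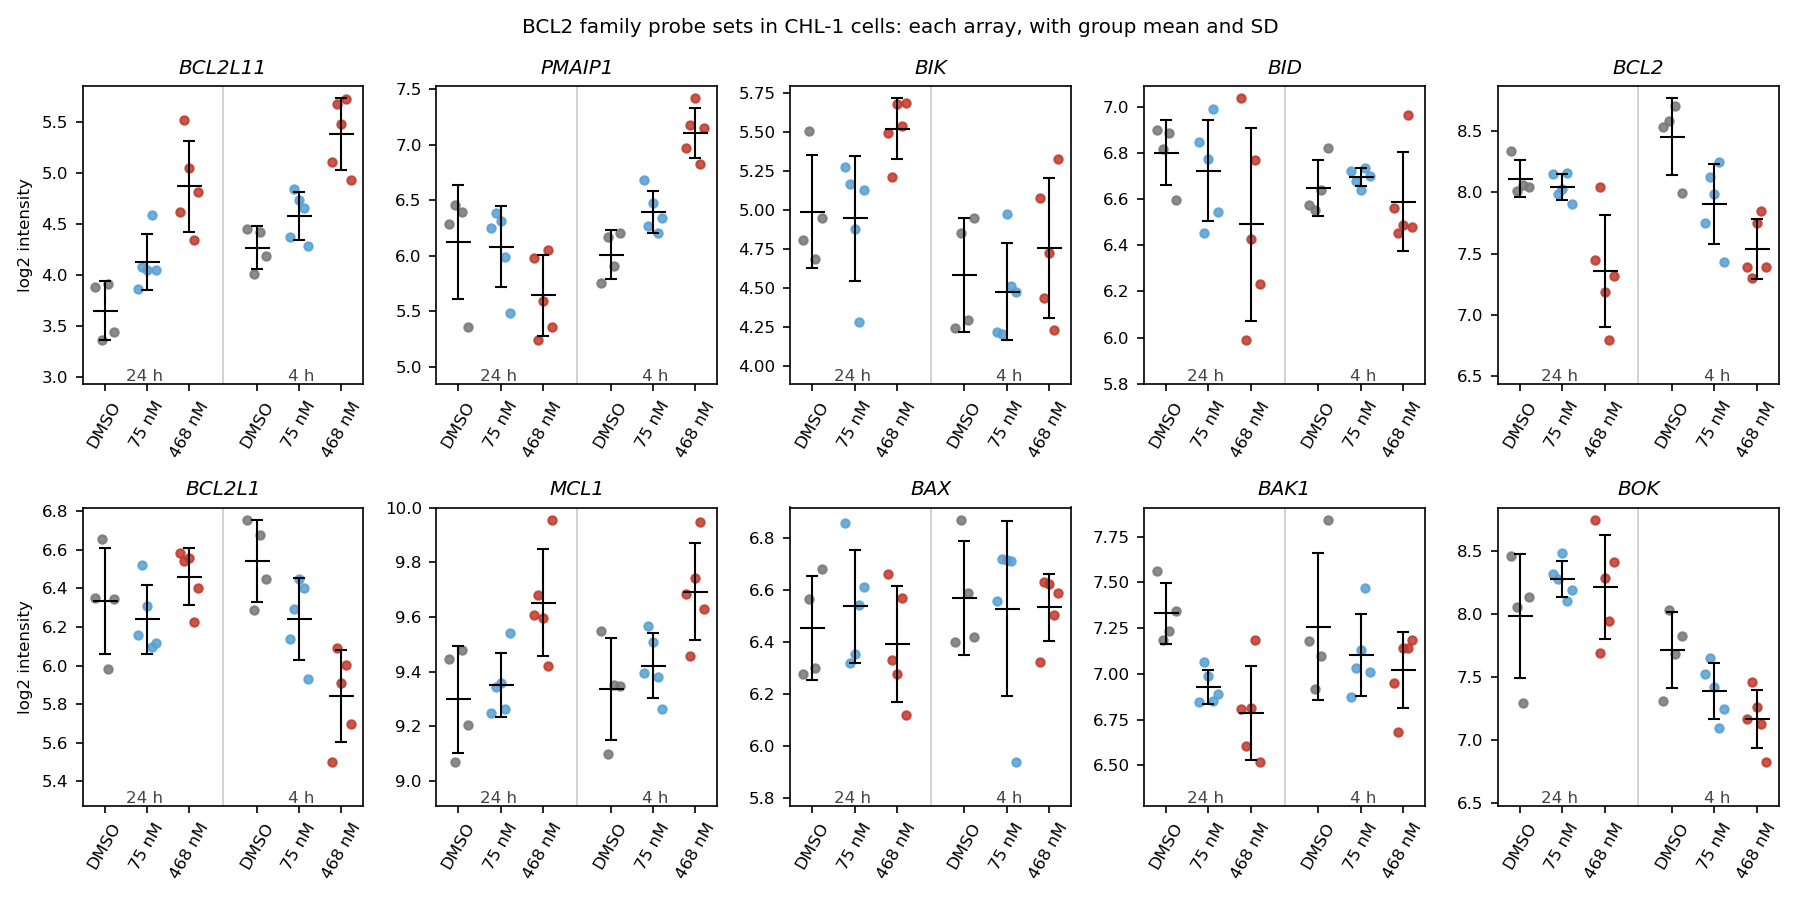
Log2 intensity of each BCL2 family gene on each array (points), with group means and SD (bars), by dose at 24 h (left of the line) and 4 h (right); the vertical scale differs between genes. BCL2L11 at 468 nM lies above every DMSO array at both times, PMAIP1 at 468 nM lies above every DMSO array at 4 h, and BAX stays within 5.94 to 6.87 on all 28 arrays.

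At 4 h, 468 nM raised 2 of the 4 BH3-only genes and lowered 2 of the 3 guardians. The death promoters BCL2L11 and PMAIP1 rose about as much as each other, to 2.17-fold and 2.14-fold of DMSO. The guardians BCL2 and BCL2L1 fell to 52.9% and 61.5% of DMSO, while MCL1, the remaining guardian, rose to 1.28-fold. Of the 10 genes 5 were called, against 10.9% of all tested genes, with 3 higher (3.96% of all tested genes) and 2 lower (6.95%). For 4 of them (BCL2L11, PMAIP1, BCL2 and BCL2L1) the 468 nM and DMSO arrays did not overlap, which was so for 13.5% of all tested genes. BCL2L11 passed the filter only through 468 nM arrays, and the 10 genes were chosen with earlier results of these data known. These counts are therefore a description and no test of the family. BAX, BAK1, BID, BIK and BOK were not called. With the runs of sample codes as a block the count stayed at 5, but MCL1 was lost (adjusted p = 0.0501) and BOK, which was lower, was gained (0.0445), so that 2 were higher and 3 lower. Of the marker genes, CD68 of the leukocyte list rose in the same comparison (0.81 ± 0.17, adjusted p = 0.00144). The log2 of the summed intensity of the 9 leukocyte markers was 5.97 to 6.50 with 468 nM and 5.79 to 6.08 with DMSO, while PTPRC, the marker shared by leukocytes, averaged 2.93 with 468 nM and 2.83 with DMSO, near the array median. CD68 was also called at 75 nM and 4 h (0.71 ± 0.17, adjusted p = 0.0405), a call lost on leaving out any 1 of the 9 arrays (0.0539 to 0.157) and with the runs as a block (0.0648). Of the 4 melanocyte lineage genes tested, 1 rose and 1 fell with 468 nM at 24 h, and 1 fell at 4 h. EDNRB, an endothelin receptor, fell at 24 h to 43.2% of DMSO (-1.21 ± 0.29, adjusted p = 0.00138) and was not called at 4 h (-0.29 ± 0.29, adjusted p = 0.641). SOX10, a transcription factor of the lineage, rose by 0.58 ± 0.13 at 24 h (adjusted p = 0.000851) and fell at 4 h (-0.73 ± 0.13, adjusted p = 0.000431). The part of these marker genes in the family's values was not tested.

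At 24 h of 468 nM, PMAIP1 and BCL2L1 were not called and BAK1 was. BCL2L11 was still raised, to 2.34-fold of DMSO, BCL2 still lowered, to 59.2%, and MCL1 again stood at 1.28-fold. BAK1, an effector, was lower, at 68.6% of DMSO, but the difference of its effect from that at 4 h was not called (-0.31 ± 0.22, adjusted p = 0.34). That makes 4 of 10 genes called, with 2 higher and 2 lower, near the 45.6% of all tested genes that were called in this comparison (20.4% higher and 25.1% lower), so the count does not set the family apart. With the runs of sample codes as a block 7 of the 10 were called, beside 4506 of all 9285 tested genes. The block added BIK (adjusted p = 0.0254), BID (0.0319) and PMAIP1 (0.0327). The median log2 change of the 10 genes was 0.03 at 24 h and -0.05 at 4 h, beside medians over all tested genes of -0.02 and -0.03. At 75 nM limma called none of the 10 genes, against 0.872% of all tested genes at 24 h and 0.679% at 4 h. An unadjusted p below 0.05 was reached there by BCL2L11 (0.0267) and BAK1 (0.0164) at 24 h and by BCL2 (0.00781) and BCL2L1 (0.0432) at 4 h.

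**Figure D2:**
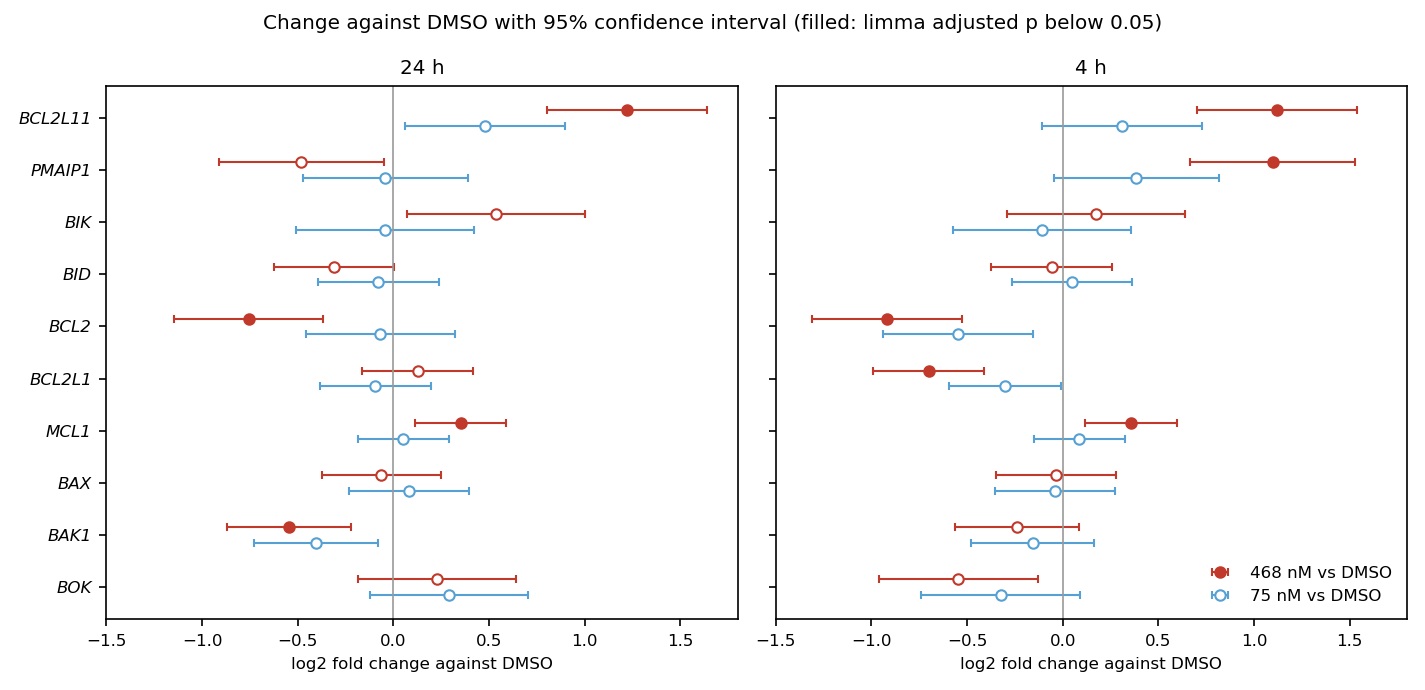
Log2 fold change against DMSO with its 95% confidence interval for 468 nM (red) and 75 nM (blue), at 24 h (left) and 4 h (right); filled symbols have a limma adjusted p below 0.05. At 468 nM the filled symbols are BCL2L11, BCL2, MCL1 and BAK1 at 24 h and BCL2L11, PMAIP1, BCL2, BCL2L1 and MCL1 at 4 h, and no 75 nM symbol is filled.

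Among the BH3-only genes, BCL2L11 encodes BIM, which binds all of the guardians and can activate BAX and BAK1 directly. At 24 h it read 3.89, 3.36, 3.91 and 3.43 with DMSO, 3.86, 4.07, 4.05, 4.59 and 4.05 with 75 nM, and 4.62, 5.52, 5.05, 4.35 and 4.82 with 468 nM. The corresponding arrays at 4 h read 4.46, 4.01, 4.42 and 4.19 with DMSO, 4.38, 4.85, 4.73, 4.66 and 4.29 with 75 nM, and 5.11, 5.68, 5.48, 5.73 and 4.93 with 468 nM. All 468 nM arrays were above all DMSO arrays at both times. At 24 h groups were apart like this for 30.1% of all tested genes. The 75 nM arrays lay mostly between and reached into the DMSO range. At 24 h 75 nM replicate 4 (4.59) also reached into the 468 nM range. The log2 change at 468 nM was 1.22 ± 0.20 (SE) at 24 h (adjusted p = 2.32e-05) and 1.12 ± 0.20 at 4 h (adjusted p = 0.000381), and the difference between those effects, 0.11 ± 0.29, was not called (adjusted p = 0.831). This gene was above the filter on 6 of 28 arrays, all of them with 468 nM, so it entered the test through the group in which it was high. Tested without any filter, it was called against DMSO at both times.

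BCL2L11 also differed between the doses. With 468 nM it was 0.75 ± 0.19 higher than with 75 nM at 24 h (adjusted p = 0.00411) and 0.81 ± 0.19 higher at 4 h (adjusted p = 0.0178), on the log2 scale. At 4 h those groups did not overlap, with 4.93 as the lowest value at 468 nM and 4.85 as the highest at 75 nM. This was so for 4.31% of all tested genes. At 24 h they overlapped, with 75 nM replicate 4 at 4.59 and 468 nM replicate 4 at 4.35. The 4 h call between the doses was lost without the filter (adjusted p = 0.0684) and with arrays shifted to hold reference genes level (0.0899). It was also lost when 1 of 4 arrays was left out: 75 nM replicate 1 (adjusted p = 0.0537), 75 nM replicate 5 (0.0574), 468 nM replicate 2 (0.0576) or 468 nM replicate 4 (0.063). Against DMSO, 75 nM gave 0.48 ± 0.20 at 24 h (adjusted p = 0.243) and 0.31 ± 0.20 at 4 h (adjusted p = 0.761). Without the compound, BCL2L11 was lower on all 4 DMSO arrays at 24 h than on any at 4 h (13.1% of all tested genes did not overlap there), by 0.62 ± 0.21 on the log2 scale, a difference that did not pass (adjusted p = 0.083). With the runs of sample codes as a block it passed (0.0284).

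PMAIP1 encodes NOXA, a BH3-only protein that binds MCL1 and marks it for degradation. At 24 h it read 6.29, 6.46, 6.39 and 5.36 with DMSO, 6.25, 6.38, 6.31, 5.99 and 5.48 with 75 nM, and 5.98, 5.24, 5.59, 6.05 and 5.36 with 468 nM. The arrays at 4 h read 5.75, 6.17, 5.91 and 6.21 with DMSO, 6.68, 6.27, 6.48, 6.21 and 6.34 with 75 nM, and 6.97, 7.17, 7.42, 6.83 and 7.15 with 468 nM. So at 4 h every 468 nM array stood above every array of the other doses, and at 24 h the 468 nM arrays overlapped the others, with replicate 2 the lowest array of all. The change at 468 nM was 1.10 ± 0.21 at 4 h (adjusted p = 0.000667), and at 24 h the value was -0.48 ± 0.21, which did not pass (adjusted p = 0.0621).

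The effect of 468 nM on PMAIP1 was lower at 24 h than at 4 h by 1.58 ± 0.30 on the log2 scale (adjusted p = 0.000365), the largest difference with time among the 10 genes. With DMSO alone the means were 6.12 ± 0.52 at 24 h and 6.01 ± 0.22 at 4 h (SD, n = 4 each), a difference of 0.11 (adjusted p = 0.788). Among the DMSO arrays at 24 h, replicate 4 read 5.36, far below the next at 6.29, and the other 3 were above every DMSO array at 4 h. Without it the DMSO difference became 0.37 (adjusted p = 0.317), and the 24 h value at 468 nM became -0.74 and passed (adjusted p = 0.00331). That 24 h value also passed without 468 nM replicate 1 (0.0391) or replicate 4 (0.0295). It passed as well with the shift by reference genes (0.047) and with the runs of sample codes as a block (0.0327). Between the doses at 4 h, 468 nM was 0.71 ± 0.20 above 75 nM (adjusted p = 0.0499), a call that stayed only when 75 nM replicate 1 or 468 nM replicate 4 was the array left out and otherwise had adjusted p of 0.0682 to 0.148. At 24 h the same comparison gave -0.44 ± 0.20 (adjusted p = 0.0922) and passed without 468 nM replicate 4 (0.0456) or 75 nM replicate 5 (0.0237). In the same 4 h comparison of the doses, 2 of the 10 genes were called, BCL2L11 and PMAIP1, both higher, against 2.56% of all tested genes called and 1.13% called higher. Neither was called without the filter or with the shift by reference genes (for PMAIP1 adjusted p = 0.164 and 0.162), and leaving out any 1 array left 0 to 1 of the 10 called, so this count is not stable.

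BIK, a BH3-only protein of the endoplasmic reticulum, was near the filter, with 11 of 28 arrays above it. At 24 h it read 4.81, 5.51, 4.69 and 4.95 with DMSO, 5.28, 5.17, 4.88, 4.28 and 5.13 with 75 nM, and 5.50, 5.21, 5.68, 5.54 and 5.69 with 468 nM. The 468 nM arrays were mostly the highest, with 1 DMSO array and 1 at 75 nM above the lowest of them. Against 75 nM the 468 nM arrays were 0.58 ± 0.21 higher (adjusted p = 0.0417), which was no longer called without 1 of 6 of the 10 arrays: 468 nM replicate 1, 3, 4 or 5, or 75 nM replicate 3 or 4 (adjusted p of 0.0597 to 0.15). It was also lost without the filter (0.109), with the shift by reference genes (0.0627) and with a variance that follows intensity (0.0509). Against DMSO the value was 0.53 ± 0.23 and did not pass (adjusted p = 0.0557), although it passed without DMSO replicate 2 (0.0184) or 468 nM replicate 2 (0.0394). It also passed when only the groups compared were fitted (0.0359), with quantile normalization repeated (0.0197) and with the runs of sample codes as a block (0.0254). At 4 h the group means were 4.59 ± 0.37 with DMSO, 4.48 ± 0.31 with 75 nM and 4.76 ± 0.45 with 468 nM (SD), all overlapping.

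BID, which caspase-8 cleaves to pass a death receptor signal on to mitochondria, was not called in any comparison. Its values at 24 h were 6.90, 6.82, 6.89 and 6.60 with DMSO, 6.85, 6.46, 6.77, 6.99 and 6.55 with 75 nM, and 7.04, 5.99, 6.43, 6.77 and 6.23 with 468 nM. The 468 nM arrays spread the widest and held both the highest and the lowest of these values. Against DMSO the value at 468 nM was -0.31 ± 0.15 (adjusted p = 0.1), and it passed with the runs of sample codes as a block (0.0319). Without 468 nM replicate 1, the high array, it was -0.45 (adjusted p = 0.0119). The comparison with 75 nM at 24 h (adjusted p = 0.232) also passed without that array (0.0383). At 4 h all group means lay between 6.59 and 6.70.

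Of the guardians, BCL2 was lower with 468 nM at both times. At 24 h it read 8.34, 8.01, 8.06 and 8.04 with DMSO, 8.15, 7.99, 8.03, 8.15 and 7.91 with 75 nM, and 7.45, 8.04, 7.18, 6.79 and 7.32 with 468 nM. The 4 h arrays read 8.54, 8.59, 8.70 and 7.99 with DMSO, 7.75, 8.12, 7.99, 8.25 and 7.43 with 75 nM, and 7.39, 7.30, 7.75, 7.85 and 7.39 with 468 nM. At 4 h every 468 nM array was below every DMSO array, whereas at 24 h 468 nM replicate 2 lay within the DMSO range and the other 4 below it. BCL2 fell by 0.76 ± 0.19 on the log2 scale at 24 h (adjusted p = 0.00205) and by 0.92 ± 0.19 at 4 h (adjusted p = 0.00148). The difference of those effects was 0.16 ± 0.27 and was not called (adjusted p = 0.707).

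The lower dose gave no call for BCL2 against DMSO at either time. At 24 h the 75 nM arrays averaged 8.05 ± 0.11 and the DMSO arrays 8.11 ± 0.15, a difference of -0.07 ± 0.19 (adjusted p = 0.897), and 468 nM was 0.69 ± 0.18 below 75 nM (log2 change -0.69, adjusted p = 0.00449). At 4 h the 75 nM value was -0.55 ± 0.19 against DMSO (adjusted p = 0.279), with the 75 nM array lower in each of the 4 runs of sample codes that hold both, and the value of 468 nM against 75 nM was -0.37 ± 0.18 (adjusted p = 0.434). The change of the 75 nM effect with time was 0.48 ± 0.27 and did not pass (adjusted p = 0.772).

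BCL2L1, the gene of BCL-XL, read 6.35, 6.66, 5.98 and 6.35 with DMSO at 24 h, 6.16, 6.52, 6.31, 6.10 and 6.12 with 75 nM, and 6.58, 6.54, 6.56, 6.22 and 6.40 with 468 nM, all overlapping. At 4 h the values were 6.76, 6.29, 6.68 and 6.45 with DMSO, 6.14, 6.29, 6.45, 6.40 and 5.93 with 75 nM, and 5.50, 6.09, 5.91, 6.002 and 5.70 with 468 nM. There each 468 nM array was below each DMSO array, and the 75 nM arrays overlapped both groups. The value at 468 nM was 0.13 ± 0.14 at 24 h (adjusted p = 0.484), while BCL2L1 fell at 4 h (log2 fold change -0.70 ± 0.14, adjusted p = 0.00119), and the effect of 468 nM differed between 24 h and 4 h by 0.83 ± 0.20 (adjusted p = 0.00376). At 75 nM the values were -0.09 ± 0.14 at 24 h (adjusted p = 0.79) and -0.30 ± 0.14 at 4 h (adjusted p = 0.55).

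MCL1, a short-lived guardian, moved the other way and by less. At 24 h it read 9.45, 9.07, 9.48 and 9.20 with DMSO, 9.25, 9.34, 9.36, 9.26 and 9.54 with 75 nM, and 9.61, 9.68, 9.60, 9.42 and 9.96 with 468 nM. The 4 h arrays read 9.55, 9.10, 9.35 and 9.35 with DMSO, 9.39, 9.57, 9.51, 9.38 and 9.26 with 75 nM, and 9.69, 9.46, 9.74, 9.95 and 9.63 with 468 nM. At each time 4 of the 5 arrays with 468 nM were above all DMSO arrays, and the remaining array overlapped them. MCL1 rose by 0.35 ± 0.12 at 24 h (adjusted p = 0.0151) and by 0.36 ± 0.12 at 4 h (adjusted p = 0.0463), and these effects differed by 0.00 ± 0.16 (95% confidence interval -0.34 to 0.33, adjusted p = 0.989).

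Both MCL1 calls were close to the threshold. The 24 h call was lost without DMSO replicate 2 (adjusted p = 0.0752) or 468 nM replicate 5 (0.0539). The 4 h call stayed without DMSO replicate 1 or 468 nM replicate 2 and was lost without any other 1 of the 9 arrays (0.0614 to 0.192), and with the runs of sample codes as a block it had an adjusted p of 0.0501. When arrays were shifted to hold 8 reference genes level, neither passed (0.177 at 24 h and 0.387 at 4 h). At 24 h, however, 6 of those 8 genes were themselves called with 468 nM, ACTB, B2M and GUSB higher and HPRT1, PGK1 and TBP lower, so the shifted values there rest on genes that changed. At 4 h none of the 8 was called. Against 75 nM, 468 nM was 0.30 ± 0.11 higher at 24 h (adjusted p = 0.0381), a call kept only when 468 nM replicate 1, 3 or 4 or 75 nM replicate 5 was the array left out (otherwise 0.059 to 0.128) and lost when only the groups compared were fitted (0.0787), without the filter (0.119) or with the shift (0.115), and 0.27 ± 0.11 higher at 4 h, which did not pass (adjusted p = 0.285). In that 24 h comparison of the doses 4 of the 10 genes were called, BCL2L11, BIK and MCL1 higher and BCL2 lower, against 30.8% of all tested genes (13.4% higher and 17.4% lower).

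Of the effectors, BAK1 was lower at 24 h. It read 7.56, 7.18, 7.23 and 7.34 with DMSO, 6.85, 7.07, 6.99, 6.85 and 6.89 with 75 nM, and 6.81, 6.61, 6.81, 7.19 and 6.52 with 468 nM. All 75 nM arrays were below all DMSO arrays, as was so for 7.08% of tested genes, and 4 of 5 at 468 nM were too. BAK1 fell by 0.54 ± 0.16 on the log2 scale at 468 nM (adjusted p = 0.00619), and at 75 nM the value was -0.40 ± 0.16, which did not pass (adjusted p = 0.205). The doses did not separate, with -0.14 ± 0.15 for 468 nM against 75 nM (95% confidence interval -0.45 to 0.16, adjusted p = 0.501). At 4 h the means were 7.26 ± 0.40 with DMSO, 7.10 ± 0.22 with 75 nM and 7.02 ± 0.21 with 468 nM (SD), and the value at 468 nM was -0.24 ± 0.16 (adjusted p = 0.411). The effect of 468 nM at 24 h minus that at 4 h was -0.31 ± 0.22 and was not called (adjusted p = 0.34).

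BAX, which moves from the cytosol into the mitochondrial membrane when activated, had group means between 6.39 and 6.57 in all 6 groups, a range of 0.18 beside a mean SD within groups of 0.22. Its log2 values against DMSO ran from -0.06 to 0.08 over both doses and times, with adjusted p of 0.762 to 0.981. For 468 nM the 95% confidence intervals were -0.38 to 0.25 at 24 h and -0.35 to 0.28 at 4 h.

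BOK, whose protein is kept low in many cells by degradation, read 8.46, 8.06, 7.29 and 8.13 with DMSO at 24 h, 8.32, 8.28, 8.48, 8.11 and 8.20 with 75 nM, and 8.75, 7.69, 8.29, 7.94 and 8.41 with 468 nM. At 4 h it read 7.31, 8.03, 7.68 and 7.83 with DMSO, 7.53, 7.65, 7.42, 7.10 and 7.25 with 75 nM, and 7.17, 7.46, 7.26, 7.13 and 6.83 with 468 nM. The 468 nM arrays were mixed with DMSO at 24 h and mostly below it at 4 h, with 1 overlapping. The value at 468 nM was 0.23 ± 0.20 at 24 h (adjusted p = 0.369) and -0.55 ± 0.20 at 4 h (adjusted p = 0.0874), and the 4 h value passed with the runs as a block (0.0445), with the shift by reference genes (0.0477) or without DMSO replicate 1 (0.0478). The difference between the times was 0.77 ± 0.29 (adjusted p = 0.0498). It was lost without any 1 of 13 of the 18 arrays (0.0516 to 0.141) and kept without DMSO replicate 1 at either time, 468 nM replicate 2 at either time or 468 nM replicate 4 at 24 h. It was lost as well without the filter (0.135), when only the groups compared were fitted (0.0999), with quantile normalization repeated (0.0572) and with the shift by reference genes (0.073).

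Set side by side, the effect of 468 nM changed between 24 h and 4 h for 3 of the 10 genes, PMAIP1, BCL2L1 and, at the threshold, BOK, against 23.5% of all tested genes (10.8% with a higher and 12.7% with a lower effect at 24 h). For 75 nM limma called none, against 0.0323%, and the lowest unadjusted p was that of BOK (0.0404). BCL2L11, BCL2 and MCL1 kept effects at 24 h whose difference from 4 h was not called. The largest of these 3 differences was 0.16 in size, with confidence intervals of -0.49 to 0.70 for BCL2L11 and -0.39 to 0.72 for BCL2. Between DMSO arrays at 24 h and 4 h limma called none of the 10 genes, against 5.23% of all tested genes, and BCL2L11 had the 1 unadjusted p below 0.05 (0.00754).

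**Figure D3:**
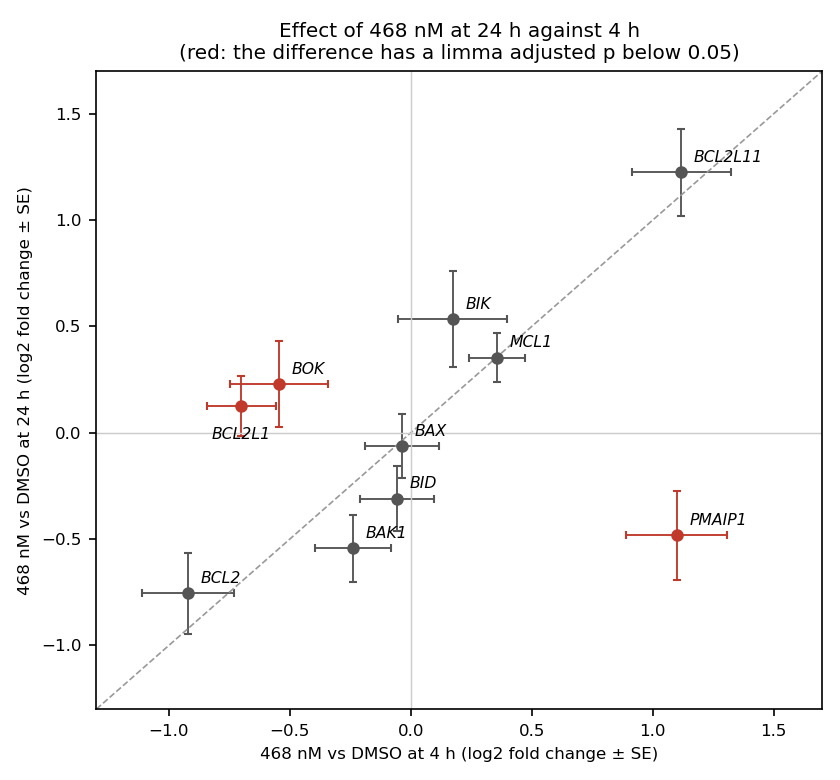
Log2 fold change at 468 nM against DMSO at 24 h (vertical) and 4 h (horizontal), with standard errors; the dashed line marks equal effects, and red genes have a limma adjusted p below 0.05 for the difference between the times. BCL2L11, MCL1 and BCL2 lie near the line, PMAIP1 lies far below it (-0.48 at 24 h and 1.10 at 4 h), and BCL2L1 and BOK lie above it.

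Within the runs of sample codes the called genes differed from DMSO at 468 nM as follows. For BCL2L11, PMAIP1, BCL2 and BCL2L1 at 4 h and BCL2L11 at 24 h the groups did not overlap. Their direction in each run follows from that and is no further evidence. At 4 h, BCL2L11 differed from DMSO by 0.74 to 1.48 and PMAIP1 by 0.92 to 1.43 in 4 of 4 runs. BCL2 was lower in 4 of 4, by -1.24 to -0.61, and BCL2L1 by -0.75 to -0.38. MCL1 was higher in 3 of 4 runs, from -0.09 to 0.65. At 24 h, BCL2L11 was higher in 4 of 4 runs (0.44 to 1.69), BCL2 lower in 4 of 4 (-1.27 to -0.30), BAK1 lower in 4 of 4 (-0.96 to -0.05) and MCL1 higher in 3 of 4 (-0.06 to 0.75). Of the genes not called at 24 h, BIK was higher in 4 of 4 runs (0.17 to 0.86) and BID lower in 4 of 4 (-0.91 to -0.12). All other uncalled genes, at either time, had runs in both directions.

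The order of the levels within a gene can be read from the group means. BCL2L11 ran from 3.65 ± 0.29 with DMSO at 24 h, through 4.13 ± 0.28 with 75 nM at 24 h, 4.27 ± 0.21 with DMSO at 4 h, 4.58 ± 0.24 with 75 nM at 4 h and 4.87 ± 0.45 with 468 nM at 24 h, to 5.39 ± 0.35 with 468 nM at 4 h (SD). All neighbours in that order overlapped, and in the middle of it widely. The range with 75 nM at 24 h (3.86 to 4.59) held the whole DMSO range at 4 h (4.01 to 4.46). Those of 75 nM at 4 h (4.29 to 4.85) and 468 nM at 24 h (4.35 to 5.52) also shared several arrays. PMAIP1 was lowest with 468 nM at 24 h (5.64 ± 0.36) and highest with 468 nM at 4 h (7.11 ± 0.23), and the other 4 groups lay within 6.01 to 6.39. BCL2 was lowest with 468 nM at 24 h (7.36 ± 0.46) and highest with DMSO at 4 h (8.46 ± 0.32).

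Outside these 10, 4 of 13 other family genes passed the filter (BCL2L12, BCL2L13, BAD and BNIP3L). BNIP3L, a mitochondrial outer membrane protein that marks mitochondria for autophagy, rose to 1.73-fold of DMSO at 468 nM and 24 h (0.79 ± 0.14, adjusted p = 5.22e-05), and the others were not called. The counts of the lists that follow stand beside the 45.6% of all tested genes called at 468 nM and 24 h (20.4% higher and 25.1% lower) and the 10.9% at 4 h (3.96% higher and 6.95% lower), and none of them is read as particular to its list. At 24 h the lists' median log2 changes were -0.10 for the apoptosome and released factors, 0.16 for caspases, 0.05 for inhibitors of apoptosis, -0.08 for death receptors and adaptors, -0.005 for regulators of family transcription and 0.11 for protein turnover, beside -0.02 over all tested genes. In the list of the apoptosome and released factors, which also holds the mitochondrial pore proteins VDAC1 and VDAC2, 8 of 9 genes were tested. At 24 h 0 were higher and 2 lower. Those 2 were the pore proteins VDAC1 (-0.42 ± 0.08, adjusted p = 0.000107) and VDAC2 (-0.29 ± 0.10, adjusted p = 0.023), and the VDAC2 call was lost on leaving out replicate 1 (0.056) or 3 (0.0858) of DMSO, or replicate 2 (0.064) or 3 (0.0534) of 468 nM, and also without the filter (0.08), when only the groups compared were fitted (0.0886) and with quantile normalization repeated (0.0929). APAF1, the scaffold of the apoptosome, and the other tested genes of this list were not called. Of 3 caspases tested of 8 listed, CASP9, the initiator on the apoptosome, rose at 24 h (0.55 ± 0.15, adjusted p = 0.00438) and CASP2 fell at 4 h (-0.46 ± 0.12, adjusted p = 0.01, and 0.0515 when only the groups compared were fitted).

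Of the inhibitors of apoptosis, 5 of 8 were tested, and at 468 nM and 24 h 2 were higher and 1 lower. BIRC5 (survivin), which also serves in cell division, had a mean of 7.11 ± 0.64 with 468 nM and 8.63 ± 0.29 with DMSO, and fell to 35.0% of DMSO (-1.51 ± 0.22, adjusted p = 3.72e-06). NAIP (0.83 ± 0.18, adjusted p = 0.000583) and BIRC2 (0.48 ± 0.15, adjusted p = 0.0108) rose, BIRC2 not being called without DMSO replicate 1 (0.0569) or with the shift by reference genes (0.0598). None of the 5 was called at 4 h, where BIRC2 passed without 468 nM replicate 1 (-0.42 over all arrays, adjusted p = 0.0771, and 0.0374 without that array) and with the shift by reference genes (0.0342). Among 6 of 11 death receptor and adaptor genes tested, FADD, which links death receptors to caspase-8, fell at 24 h to 48.8% of DMSO (-1.03 ± 0.16, adjusted p = 6.6e-06). TNFRSF1A, a receptor for TNF, fell (-0.50 ± 0.14, adjusted p = 0.00439) and its adaptor TRADD rose (0.74 ± 0.19, adjusted p = 0.00205). None of these was called at 4 h, where TNFRSF1A (-0.41, adjusted p = 0.0589) passed with the runs as a block (0.0218) and without DMSO replicate 1 (0.0473) or 468 nM replicate 5 (0.0242), and FADD (-0.43, adjusted p = 0.0859) passed with the block (0.038). Both also passed with the shift by reference genes (TNFRSF1A 0.0334 and FADD 0.0349).

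The last lists hold genes that act on the family. Of 20 genes that encode regulators of family transcription, 12 were tested, with 3 higher and 4 lower at 468 nM and 24 h and 2 higher and 3 lower at 4 h. MYC fell to 47.8% of DMSO at 4 h (-1.07 ± 0.13, adjusted p = 2.59e-06), and JUN, a part of AP-1, rose to 2.79-fold (1.48 ± 0.20, adjusted p = 1e-05). At 24 h E2F1 (-1.37 ± 0.17, adjusted p = 2.85e-07) and NFKB1 (-0.68 ± 0.13, adjusted p = 0.000104) fell. Of 10 genes for the turnover of MCL1 and BIM proteins, 6 were tested, with 2 higher and 1 lower at 24 h and none at 4 h. BTRC, a ubiquitin ligase subunit, rose (0.49 ± 0.10, adjusted p = 0.000237), as did the deubiquitinase USP9X (0.44 ± 0.15, adjusted p = 0.0151), which acts on MCL1, while MAPK3 (ERK1), whose kinase phosphorylates BIM, fell (-0.48 ± 0.15, adjusted p = 0.0114). The USP9X call was lost on leaving out replicate 2 (0.0667) or 4 (0.0679) of DMSO, or replicate 2 of 468 nM (0.0501), when only the groups compared were fitted (0.0701) and with the shift by reference genes (0.124). The MAPK3 call was lost without DMSO replicate 4 (0.0576) and when only the groups compared were fitted (0.0541). At 75 nM, 1 gene of these cell death and regulator lists was called, BRD2, which encodes a BET protein and was named here after its value was seen. It was higher at 4 h (0.49 ± 0.08, adjusted p = 0.00108), but the mean of its probe sets gave 0.17 (adjusted p = 0.838), and it was not called when only the groups compared were fitted (0.0671) or with the shift by reference genes (0.0633).

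**Figure D4:**
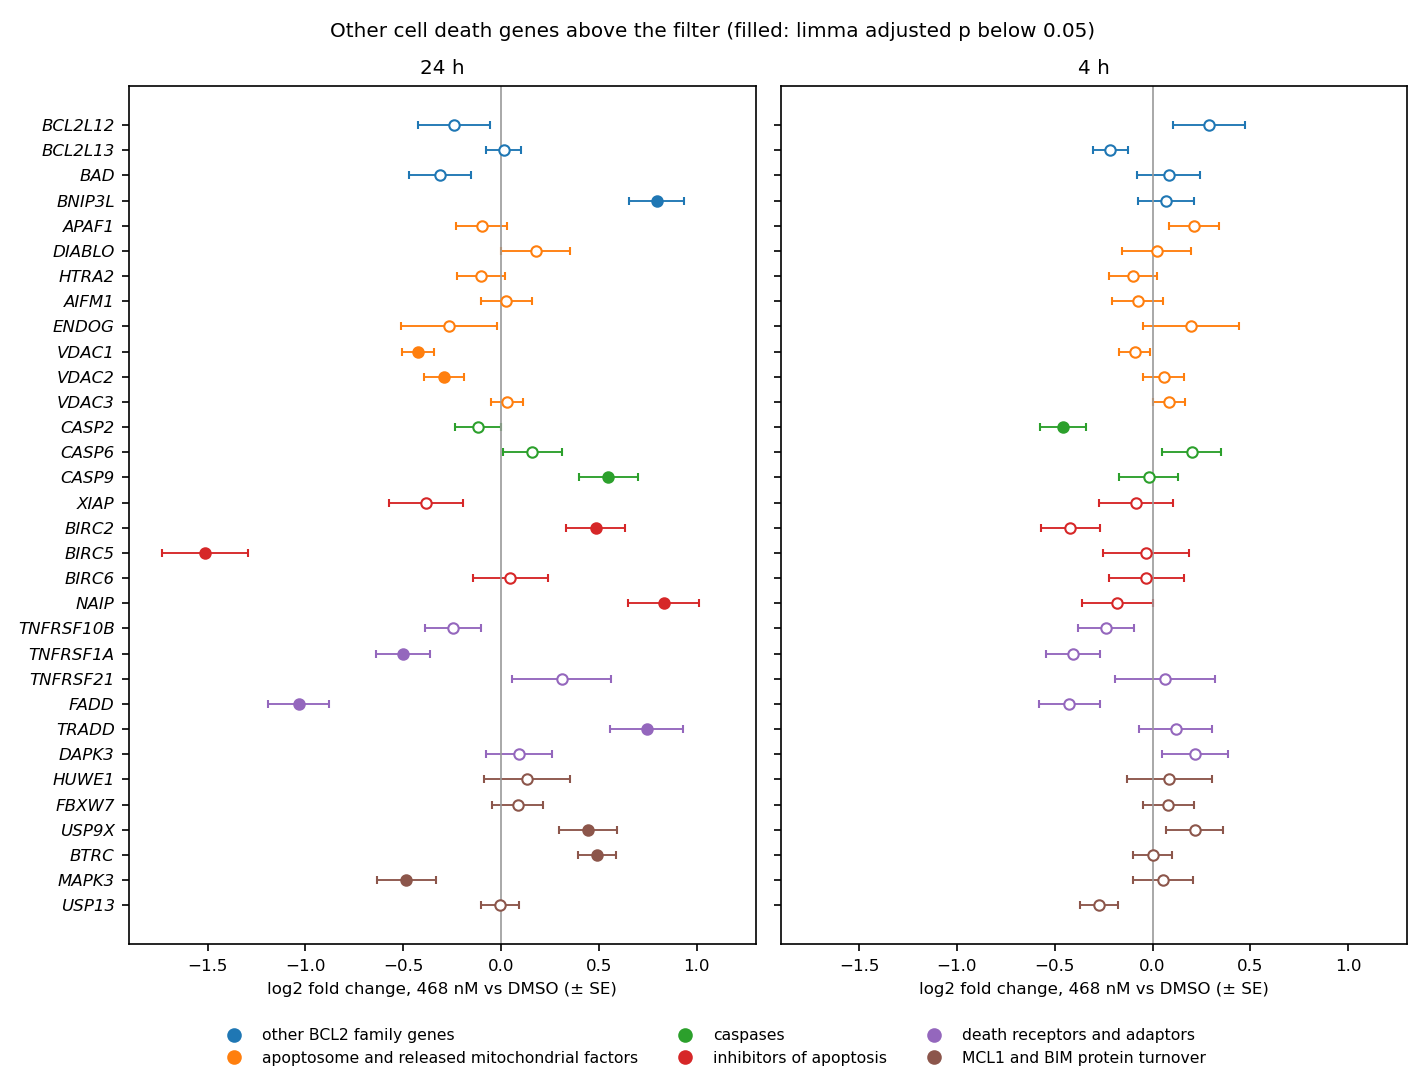
Log2 fold change with standard error at 468 nM against DMSO for the other cell death genes above the filter, at 24 h (left) and 4 h (right), coloured by list; filled symbols have a limma adjusted p below 0.05. CASP2 is the filled gene at 4 h, and at 24 h BIRC5 and FADD are furthest to the left and NAIP, BNIP3L and TRADD furthest to the right.

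The genes whose levels over the 28 arrays were most like those of each called member were listed, as a description, since the arrays share their doses and times. For BCL2L11 they were ZCCHC14 (Pearson r = 0.906) and KDM3A (0.874), and for PMAIP1 they were VDR (0.823) and HSPA2 (0.807). BCL2 was closest to INO80D (0.877) and ETV6 (0.825), and BCL2L1 to CNTRL (0.821) and ITPKB (0.765). MCL1 was closest to RSBN1 (0.775) and CBFA2T2 (0.773), and BAK1 to WDR12 (0.716) and RPUSD4 (0.708). Between members, the highest r was 0.742, for MCL1 with BCL2L11.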

How the data were processed

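RNA of 28 CHL-1 samples was measured on Affymetrix arrays. For 53617 probe sets the authors deposited linear intensity values, which come from RMA per the submitters' processing notes. Its version and the genome build are not stated in the sources at hand. Because RMA equalises the distributions of all arrays, a change common to most transcripts is hidden. These deposited intensities were converted to log2 before testing. Probe sets were named from the platform annotation, and 23871 had 1 symbol, 1842 several and 27904 were not listed. Symbols were updated through a RefSeq table of GRCh38.p14 (22569 by gene ID, 733 by current symbol, 565 by older symbol, 4 unchanged). The probe set with the highest mean stood for each of 22357 genes, and genes above log2 5 on at least 4 arrays were tested (9285).

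A model with 6 group means was fitted over the 28 arrays in limma 3.58.1 in R 4.3.3 (22 residual and 3.84 prior degrees of freedom), with Python 3.11.15 for tables, and p-values were adjusted by the Benjamini-Hochberg method within each comparison. The comparisons were each dose against DMSO, 468 nM against 75 nM, the effect of either dose at 24 h minus that at 4 h, and DMSO at 24 h against 4 h. The script was tested on simulated data. The number of arrays limits the precision. The 10 genes and all gene lists were chosen with earlier results of these data known. All 10 were named, as were at most 4 called genes of each other list (those with the largest change), and the 2 genes most correlated with each called member.

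Replicate numbers only name arrays. The titles hold sample codes, which were grouped here in rising order into runs with at most 1 array of a group each. Same-run arrays deviated together in all 3 comparisons at 4 h. Their correlations were 0.108 to 0.324 for 75 nM against DMSO and 0.159 to 0.277 for 468 nM against DMSO. For 468 nM against 75 nM they were 0.103 to 0.345. In the comparisons of doses at 24 h they were positive too, but reached as low as 0.015. The calls reported at both times come from the fit without the run. An alternative fit took the run as a block, and its result is given where it changed a call of a gene named here. Alternatives were other filters, normalizations, scalings, variance models, the mean of all probe sets, only the groups compared, the run as a block and leaving out each array.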

Additional observations from a re-analysis of the deposited data

Results flagged for a closer look

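Of 60 sets of arrays checked (10 genes in 6 groups), 4 held a value set far apart from the rest of its group, and chance gives about 1 in 20. BCL2 on DMSO replicate 1 at 24 h was high, at 8.34 with the next array at 8.06. PMAIP1 on DMSO replicate 4 at 24 h was low, at 5.36 with the next at 6.29, and without that array the 24 h value at 468 nM passed the threshold. BAX on 75 nM replicate 5 at 4 h was low, at 5.94 with the next at 6.56. BID on 468 nM replicate 4 at 4 h was high, at 6.97 with the next at 6.56.

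The effect of 468 nM differed between 24 h and 4 h, by the interaction term in limma, for PMAIP1 (-1.58, adjusted p = 0.000365), BCL2L1 (0.83, adjusted p = 0.00376) and BOK (0.77, adjusted p = 0.0498). For PMAIP1 and BCL2L1 the call held under every alternative tried that tested the gene, with adjusted p up to 0.00194 and 0.0174, and for BOK it did not.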

How the results depend on the processing

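At 468 nM against DMSO, the calls of BCL2L11, PMAIP1, BCL2 and BCL2L1 at 4 h (adjusted p up to 0.00331, 0.00463, 0.00912 and 0.0119) and of BCL2L11, BCL2 and BAK1 at 24 h (up to 0.0019, 0.0175 and 0.0288) held under every alternative that tested the gene. Counts of called members moved as follows. With a filter at log2 7, which left 4 members in the test, 2 rather than 5 were called for 468 nM against DMSO at 4 h, 0 rather than 2 for 468 nM against 75 nM at 4 h, 2 rather than 4 for the same at 24 h and 1 rather than 3 for the change of the 468 nM effect with time. Without a filter, and with arrays shifted by the reference genes, 468 nM against 75 nM gave 2 at 24 h and 0 at 4 h, losing BIK (0.109 and 0.0627) and MCL1 (0.119 and 0.115) at 24 h and BCL2L11 (0.0684 and 0.0899) and PMAIP1 (0.164 and 0.162) at 4 h. With the replicate block, 468 nM against DMSO at 24 h gave 7, adding BIK (adjusted p = 0.0254), BID (0.0319) and PMAIP1 (0.0327), and DMSO at 24 h against 4 h gave 1, BCL2L11 (0.0284). At 24 h the same-run correlations were all positive. They were 0.058 to 0.252 for 75 nM and 0.015 to 0.305 for 468 nM against DMSO, and 0.081 to 0.193 between the doses. For DMSO over time they were -0.03 to 0.096. Over all pairs of different groups the median was 0.098 within runs and -0.02 between runs, and 22 of 28 arrays correlated best with their own run. The count at 24 h therefore depends on whether the run is in the model, and the labels do not say what a run stands for. Leaving out 1 array gave 4 to 6 calls for 468 nM against DMSO at 4 h and 3 to 6 at 24 h, 0 to 1 for 468 nM against 75 nM at 4 h and 2 to 5 at 24 h, 2 to 3 for the change of the 468 nM effect and 0 to 0 for DMSO. The 3 results on 75 nM stayed at 0 throughout. MCL1 was lost at 24 h without a filter (0.0534) and with only the groups compared (0.0749), and at 4 h likewise (0.152 and 0.0979). Of 3398 single-gene results over all alternatives, 3258 stayed on their side of the threshold, 113 lost a call and 27 gained one. No called value changed direction. A further 138 uncalled values changed sign, and after the change none was above 0.142 in size. Before it some were larger, such as BOK at 468 nM and 24 h, which went from 0.229 to -0.002 on leaving out an array. Counts over all genes ranged over alternatives from 28 to 82 (63 in the fit reported) for 75 nM at 4 h, 18 to 234 (81) for 75 nM at 24 h, 616 to 1138 (1013) for 468 nM at 4 h, 2772 to 4506 (4231) for 468 nM at 24 h, 123 to 286 (238) and 1976 to 3200 (2860) for 468 nM against 75 nM at 4 h and 24 h, 0 to 11 (3) and 1499 to 2560 (2184) for the changes of the 75 nM and 468 nM effects, and 103 to 908 (486) for DMSO. The shift by reference genes moved the median log2 change of all genes to -0.10 at 24 h and -0.15 at 4 h for 468 nM against DMSO, -0.12 for 75 nM at 24 h and 0.15 for DMSO over time. The causes of these changes were not tested. BCL2L11 and BIK lie near the filter, so their signal over background is low.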

Other observations

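The other family genes on the array that stayed below the filter were looked at without it, after their values were seen. BMF, a BH3-only gene that is bound to the cytoskeleton in healthy cells, had 4.88 ± 0.35 with 468 nM at 24 h (lowest 4.44, n = 5), against 3.22 ± 0.57 with DMSO (highest 3.95, n = 4), so the arrays did not overlap. Of the genes above the filter, 30.1% did not overlap in that comparison. At 75 nM and 24 h BMF had 3.43 ± 0.07. In the limma fit over 22357 genes without a filter the log2 change at 468 nM was 1.66 ± 0.22 at 24 h (adjusted p = 5.65e-06) and 0.02 ± 0.22 at 4 h (adjusted p = 0.986), and the difference between the times was 1.64 ± 0.32 (adjusted p = 0.00177). In that fit 3998 of the 22357 genes were called at 468 nM and 24 h. BBC3, HRK, BCL2A1, BCL2L10, BCL2L14 and BCL2L15 were not called against DMSO at either dose or time. The BMF levels are close to the background of the arrays. BBC3 (PUMA), HRK and BCL2A1 also lay below the filter in every group, and their means at 468 nM and 24 h were 3.84 ± 0.50, 2.16 ± 0.96 and 1.69 ± 0.64, against 3.01 ± 0.40, 2.36 ± 0.50 and 1.72 ± 0.66 with DMSO.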
